A study of Mus musculus with 5 samples.

Results

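Insulin-like growth factor 1 (Igf1), its receptor (Igf1r) and the IGF-binding proteins Igfbp2 to Igfbp7 were followed in chemically induced neural progenitor cells (ciNPC). The members were the probes of 8 genes, chosen by the gene name that the array files give to each non-control probe. They are 8 of the 36163 distinct names on the array and were measured by 13 of its 55681 probes, with 5 probes for Igf1, 2 for Igfbp2 and 1 for each of the other 6 genes. A probe was tested where some group had it well above background on each of its arrays. All 13 were among the 35616 probes that met this, and 11 were above background on all 5 arrays. No member probe was saturated on any array.

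The study asked whether fibroblasts can be turned into neural progenitors with chemicals under low oxygen, and set the product against the starting cells and against progenitors from brain. The groups were ciNPC at passage 13 (p13, 2 arrays), ciNPC at passage 5 (p5, 1 array), brain-derived neural progenitor cells as the control (NPC, 1 array) and mouse embryonic fibroblasts (MEF, 1 array). The labels give no strain, age, chemical, oxygen level or culture medium for these samples, and they leave unsaid whether the p13 pair came from separate cultures. The p-values therefore reflect the spread among these arrays alone, and that spread may be technical. Against MEF and NPC, the p5 and p13 arrays were taken as replicates of ciNPC, so the spread there includes any difference between passages.

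IGF1 is a secreted growth factor that acts through the tyrosine kinase receptor IGF1R, and in neural progenitors it is known for promoting survival and proliferation. Secreted IGF-binding proteins hold IGF1 and IGF2 away from the receptor or deliver them to it, and proteases that cut the binding proteins set the growth factor free. The members differ in this role. IGFBP3 is the main carrier in serum, IGFBP5 also binds extracellular matrix, IGFBP4 is cleaved by the protease PAPP-A, IGFBP6 prefers IGF2 over IGF1, IGFBP2 is abundant in brain, and IGFBP7 binds IGFs only weakly.

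Every array held 62976 spots, and 47.9% to 57.6% of the non-control spots lay well above background. Precision is limited by how few arrays there are. Spike-in controls had a slope of 0.803 on ciNPC p13 replicate 2, against 0.915 to 0.987 on the other 4 arrays. All 3 ciNPC arrays were on slide 2, and NPC and MEF were on slide 1, so for ciNPC against either cell type, slide and cell type cannot be told apart. The neural progenitor markers Sox2, Sox3, Nes, Olig2, Fabp7, Bcan and Pax6 were all higher in ciNPC than in MEF. None of these 7 passed the test against NPC in limma, where 4 were lower at an unadjusted p under 0.05. Over all probes tested, 12.4% had an unadjusted p under 0.05 against NPC, in either direction. In MEF, Sox2, Sox3, Olig2 and Pax6 were not above background. Of 8 fibroblast markers, 6 were lower in ciNPC than in MEF (Col1a1, Col1a2, Col3a1, Thy1, Dcn and Acta2), and all 8 were higher in ciNPC than in NPC.

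Levels are given as log2 of the processed signal minus the 75th percentile of the array. A probe was called higher or lower at a Benjamini-Hochberg adjusted p under 0.05 in limma's fit over all 35616 probes together with a difference of at least 2-fold. MEF and NPC, with a single array each, were taken to vary as the ciNPC arrays did. These are whole cultures, in which fewer cells of a type and less RNA per cell cannot be told apart. Levels of different probes are not set against each other, because each probe has its own brightness.

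The Igf1 probes matter most for reading the gene, because they lie at different places on chromosome 10 (mm9, plus strand) and did not move alike. The array files assign the probes that start at bases 889, 909, 3252 and 6909 to Igf1 transcript variant 1, and the probe that starts at base 1027 to transcript variant 2. The first 30 of the 60 bases of each are shown, with the 10 shown bases that the probes at 889 and 909 have in common in capitals. These probes overlap over 40 bases in all and are not independent measurements.
Igf1 start 889, chr10:87393561-87393620: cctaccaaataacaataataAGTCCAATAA
Igf1 start 909, chr10:87393581-87393640: AGTCCAATAAcattacaaagatgggcattt
Igf1 start 3252, chr10:87395924-87395983: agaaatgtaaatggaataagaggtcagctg
Igf1 start 6909, chr10:87399581-87399640: ctcctgattgtatttgaagtggttattcaa
Igf1 variant 2 start 1027, chr10:87378456-87378515: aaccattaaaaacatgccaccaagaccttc

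Among the binding proteins, the probes that carried the differences are shown in the same way, as the first 30 of 60 bases in the sense of the transcript, with mm9 coordinates from the array files.
Igfbp3, chr11:7106594-7106653, minus strand: gcagttttccaaaaacacagatttcttttc
Igfbp5, chr1:72904829-72904888, minus strand: cacatcacatattactgtagctctctatag
Igfbp6, chr15:101979852-101979911, plus strand: ctgtcacccttgggcctttacacagctagt

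ciNPC had less signal than MEF for Igfbp5, Igfbp6 and 3 of the 5 Igf1 probes, and more for Igfbp2 and Igfbp3. Relative to NPC, they had more signal for Igfbp6 and for 2 overlapping Igf1 probes. Of the 13 member probes, 3 were higher and 5 were lower in ciNPC than in MEF, where 24.0% of all probes tested were called in either direction, 12.8% higher and 11.2% lower. The median difference was -1.28 over the 13 probes and -0.08 over all probes tested. Against NPC, 3 member probes were higher in ciNPC and 0 were lower, beside 2.76% of all probes called in either direction, 2.71% higher and 0.0505% lower. The lower calls numbered 18, and 68 to 212 with 1 ciNPC array left out. Here the median difference was 0.52 over the 13 probes and -0.10 over all probes. Igf1 counts 5 times and Igfbp2 2 times in the median over the 13 probes of each comparison. Each of those medians is the value of the Igf1 probe at base 3252, which was under background on both ciNPC p13 arrays. At an unadjusted p under 0.05 in limma, 5 member probes were higher and 1 lower than in NPC, beside 12.4% of all probes in either direction. Both comparisons use the same 3 ciNPC arrays.

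**Figure D1:**
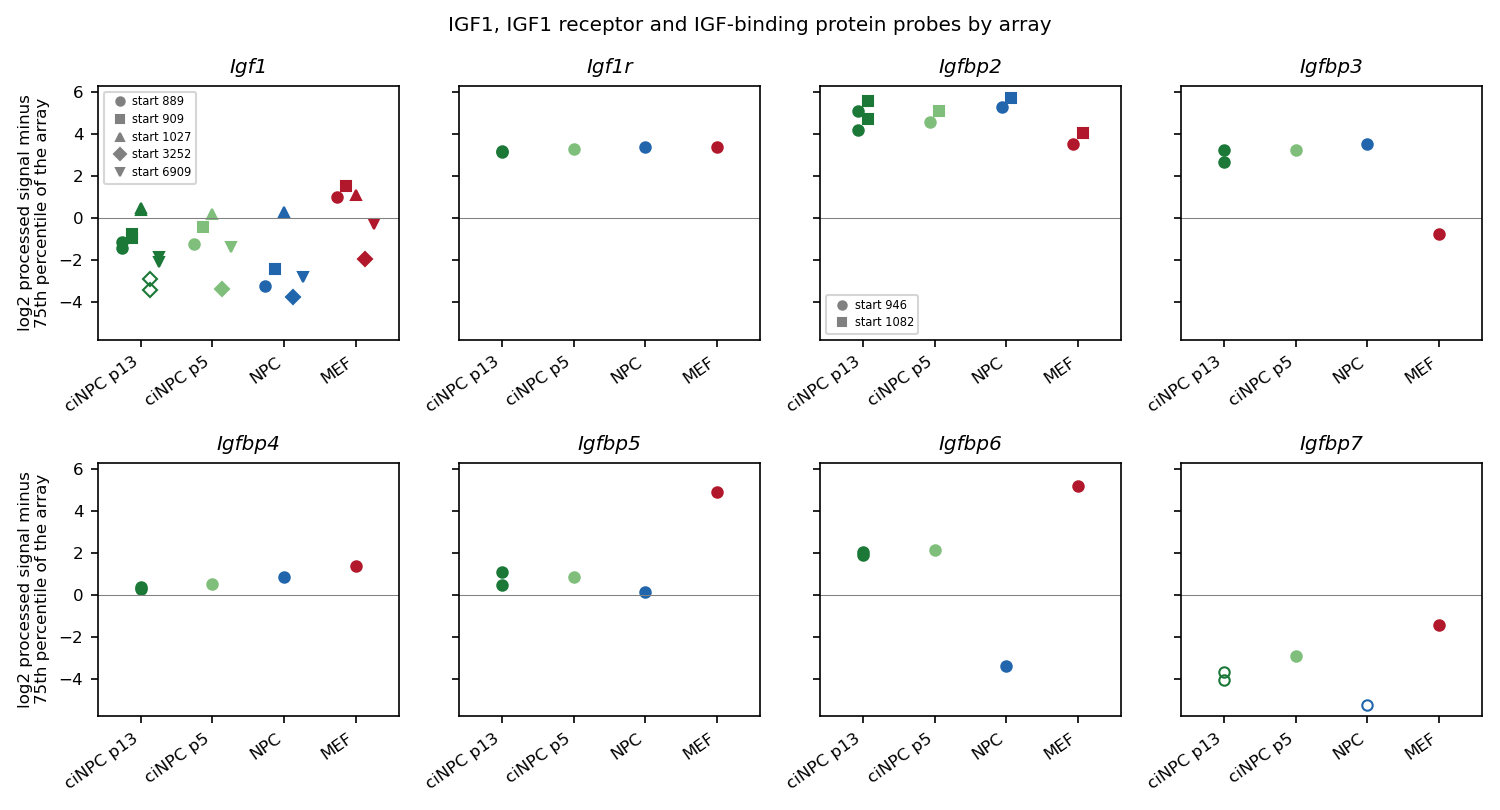
Level of each member probe on every array (log2 processed signal minus the 75th percentile of the array), with 2 points for ciNPC p13 and 1 for ciNPC p5, NPC and MEF. Marker shapes stand for the probes of Igf1 and Igfbp2 by their start base, and open markers for values not above background. Igfbp3 is near 3 on the ciNPC and NPC arrays and at -0.73 in MEF, while Igfbp6 sits at a different level in each of the 3 cell types.

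The ligand Igf1 had its clearest differences at the probe starting at base 889. It lay at -1.41 and -1.14 in ciNPC p13 and at -1.23 in ciNPC p5, against -3.21 in NPC and 1.04 in MEF. The ciNPC arrays stood apart from both other cell types and lay between them. Igf1 at this probe was 20.3% of the MEF level in ciNPC, a log2 difference of -2.30 (SE 0.30, limma's adjusted p = 0.00164), and 3.87-fold higher than in NPC (log2 difference 1.95, SE 0.30, adjusted p = 0.0194). Its ciNPC arrays averaged -1.26 ± 0.14 (SD, n = 3). The NPC value was above background but near the lowest signal well above background on that array (-4.26), so the fold over NPC rests on a dim value.

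The overlapping Igf1 probe at base 909 lay at -0.95 and -0.74 in ciNPC p13 and -0.42 in ciNPC p5, against -2.42 in NPC and 1.55 in MEF. It gave the same order of cell types, with log2 differences of -2.25 (SE 0.30, limma's adjusted p = 0.00163) from MEF and 1.71 (SE 0.30, adjusted p = 0.0319) from NPC. Both calls against NPC were lost under quantile normalisation, where limma's adjusted p was 0.113 for the probe at 889 and 0.160 for the probe at 909. Without an intensity trend in the fit these were 0.0845 and 0.189. With normexp background correction the differences from NPC were 1.30 and 1.11 and were still called. Both calls against MEF held in all 11 alternatives that tested these probes.

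Farther along transcript variant 1, the Igf1 probe at base 6909 lay at -2.08 and -1.86 in ciNPC p13 and -1.36 in ciNPC p5, against -2.79 in NPC and -0.29 in MEF. It was lower in ciNPC than in MEF (log2 difference -1.48, SE 0.41, limma's adjusted p = 0.0317), or 36.0% of the MEF level. That call was lost in 5 of 11 alternatives, among them quantile normalisation (adjusted p = 0.0820) and the fit without ciNPC p13 replicate 1 (adjusted p = 0.0768). Against NPC its difference of 1.03 (SE 0.41) did not pass (adjusted p = 0.381).

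The Igf1 probe at base 3252 was dim. Both ciNPC p13 arrays were under background there, at -3.40 and -2.90, against -3.39 in ciNPC p5, -3.74 in NPC and -1.95 in MEF. Its 2 spots differed by up to 1.00 on the log2 scale on 1 array, and neither its difference of -1.28 from MEF (SE 0.59, limma's adjusted p = 0.145) nor that of 0.52 from NPC passed. Without ciNPC p13 replicate 2 the difference from MEF was -1.44 and was called lower.

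Igf1 transcript variant 2 behaved differently. Its probe lay at 0.39 and 0.50 in ciNPC p13 and 0.21 in ciNPC p5, against 0.31 in NPC and 1.09 in MEF. The NPC array fell within the range of the ciNPC arrays, and MEF stood above all of them. The difference of ciNPC from MEF was -0.73 (SE 0.21, limma's adjusted p = 0.0347), which is under 2-fold and was not called, and the difference from NPC was 0.06 with a 95% interval of -0.44 to 0.55. The 2 spots of this probe differed by 0.15 to 0.76 on the log2 scale.

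Measured within each array, variant 1 lay further below its MEF level than variant 2 did. The extra log2 change at the probe at 889, relative to the variant 2 probe, was -1.74 and -1.59 in ciNPC p13, -1.38 in ciNPC p5 and -3.47 in NPC. For Igf1 this averaged -1.57 ± 0.18 over the ciNPC arrays (SD, n = 3). The probe at 909 gave -1.53 ± 0.39 and the probe at 6909 gave -0.75 ± 0.50 (SD, n = 3 each). No mean is given for the probe at 3252, which was under background on both ciNPC p13 arrays. An exact two-sided permutation test of the 3 ciNPC arrays against the 1 MEF array cannot go below p = 0.25, and each of these 3 contrasts gave 0.25. The whole difference rests on 1 MEF array and on a single variant 2 probe.

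**Figure D2:**
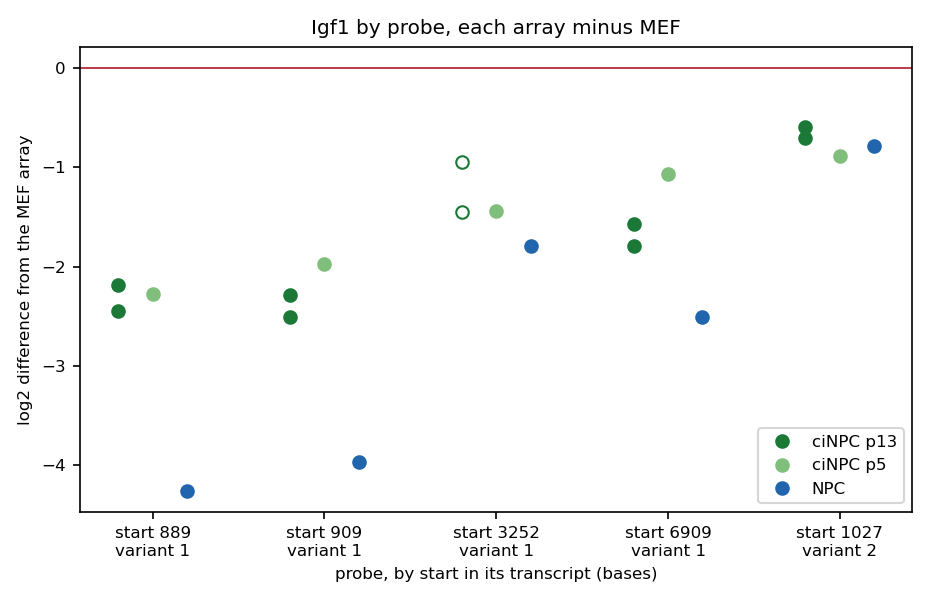
Difference of each array from the MEF array (log2, vertical axis) at the 5 Igf1 probes, ordered by transcript variant and by start base, with open markers for values not above background. The NPC points lie near -4 at the probes at 889 and 909 and at -0.78 at the variant 2 probe, where the ciNPC points lie close to the NPC point.

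Macrophages and microglia are known sources of Igf1, so their markers are given beside it. Of 11 such markers, 7 and 6 were above background in ciNPC p13, 8 in ciNPC p5, 4 in NPC and 10 in MEF, and Ptprc, the leukocyte surface marker CD45, was under background on all 5 arrays. The summed marker level was 4.07 and 3.99 in ciNPC p13 and 3.87 in ciNPC p5, against 4.08 in NPC and 6.09 in MEF, as the log2 of summed scaled signals. Itgam made up most of the summed level on every array. The median of these markers was -2.79 and -1.92 in ciNPC p13, -2.15 in ciNPC p5, -6.15 in NPC and -1.64 in MEF. Csf1r, Itgam and Trem2 were lower in ciNPC than in MEF, and Tyrobp, Adgre1 and Trem2 were higher in ciNPC than in NPC. The part of these cells in the Igf1 differences was not tested.

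Igf1r, the receptor, had the smallest range of the 13 member probes. Its level was 3.20 and 3.17 in ciNPC p13 and 3.28 in ciNPC p5, against 3.39 in NPC and 3.41 in MEF, which span 0.25. The ciNPC arrays lay a little below both other cell types. The log2 difference of ciNPC was -0.20 from MEF (95% interval -0.51 to 0.11, limma's adjusted p = 0.303) and -0.18 from NPC (95% interval -0.49 to 0.14, adjusted p = 0.640).

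Igfbp3 had the largest rise among the members in ciNPC relative to MEF. Its probe lay at 3.27 and 2.70 in ciNPC p13 and 3.25 in ciNPC p5, against 3.54 in NPC and -0.73 in MEF. The ciNPC arrays were close to NPC, all 3 a little below it, and far above MEF. Igfbp3 was 14.0-fold higher in ciNPC than in MEF (log2 difference 3.80, SE 0.25, limma's adjusted p = 0.000112), and its difference of -0.46 from NPC did not pass (SE 0.25, 95% interval -1.05 to 0.13, adjusted p = 0.512). Its call against MEF held in all 12 alternatives, with log2 differences of 3.41 to 3.99.

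A second probe in the Igfbp3 region, at chr11:7107949-7108008 (mm9), carries a transcript identifier in place of the gene name and is not a member. It was added after its values were seen. It lay at -0.15 and -0.19 in ciNPC p13 and -1.28 in ciNPC p5, against -0.01 in NPC and -6.37 in MEF, where it was not above background. The transcript was at least 14.9-fold higher in ciNPC than in MEF (limma's adjusted p = 0.000377), and its difference of -0.53 from NPC did not pass (adjusted p = 0.721). Lower bounds of this kind are set against the lowest signal well above background on the dim array.

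Igfbp2, the IGF-binding protein known for its abundance in brain, had the same order of cell types with smaller steps. The probe at base 946 lay at 5.09 and 4.18 in ciNPC p13 and 4.60 in ciNPC p5, against 5.30 in NPC and 3.53 in MEF. The second probe, at base 1082, lay at 5.57 and 4.72 in ciNPC p13 and 5.11 in ciNPC p5, against 5.75 in NPC and 4.07 in MEF. At both probes all 3 ciNPC arrays lay above MEF and below NPC, and ciNPC p13 replicate 2 was the lowest of them.

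For Igfbp2, ciNPC exceeded MEF by 2.14-fold at base 946 (log2 difference 1.10, SE 0.31, limma's adjusted p = 0.0332) and by 2.09-fold at base 1082 (1.07, SE 0.29, adjusted p = 0.0298). Without ciNPC p13 replicate 1 these differences were 0.87 and 0.85, under the 2-fold threshold, and neither was called. With normexp background correction the probe at 1082 was no longer called (log2 difference 0.96). Without an intensity trend neither passed (adjusted p = 0.166 and 0.159). Neither difference from NPC passed, at -0.67 (SE 0.31, adjusted p = 0.451) and -0.62 (SE 0.29, adjusted p = 0.461).

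Igfbp5 had the largest fall among the members in ciNPC relative to MEF. It lay at 1.10 and 0.46 in ciNPC p13 and 0.86 in ciNPC p5, against 0.14 in NPC and 4.89 in MEF. No ciNPC array came near MEF, and all 3 lay slightly above NPC. Its level in ciNPC was 5.90% of that in MEF (log2 difference -4.08, SE 0.26, limma's adjusted p = 9.64e-05), and its difference of 0.66 from NPC did not pass (SE 0.26, adjusted p = 0.360). All 12 alternatives kept the call against MEF, at -4.23 to -3.91.

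Igfbp6, which binds IGF2 more tightly than IGF1, separated all 3 cell types. It lay at 2.02 and 1.89 in ciNPC p13 and 2.14 in ciNPC p5, against -3.39 in NPC and 5.19 in MEF. The ciNPC arrays lay within 0.25 of each other, between cell types that were 8.58 apart on the log2 scale. Igfbp6 in ciNPC was 11.1% of the MEF level (log2 difference -3.17, SE 0.17, limma's adjusted p = 5.86e-05) and 42.4-fold higher than in NPC (log2 difference 5.41, SE 0.17, adjusted p = 1.88e-05). Both calls held in all 12 alternatives, with log2 differences of -3.23 to -2.95 from MEF and 4.01 to 5.52 from NPC. The NPC value was above background but near the lowest signal well above background on that array (-4.26), so the fold over NPC rests on a dim value.

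Igfbp4, a substrate of the protease PAPP-A, lay at 0.35 and 0.28 in ciNPC p13 and 0.50 in ciNPC p5, against 0.86 in NPC and 1.37 in MEF. All 3 ciNPC arrays were below both other cell types. The level in ciNPC was 50.1% of that in MEF (log2 difference -0.996, SE 0.19, limma's adjusted p = 0.00776), just short of the 2-fold threshold, and it was called only without ciNPC p5 (-1.06) among 12 alternatives. The difference from NPC was -0.48 (SE 0.19, adjusted p = 0.377).

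Igfbp7 was above background only in ciNPC p5 and MEF. Its probe lies at chr5:77778271-77778330 (mm9, minus strand) and has a GC content of 23.3%. It lay at -3.66 and -4.04 in ciNPC p13 and -2.93 in ciNPC p5, against -5.23 in NPC and -1.42 in MEF. MEF had the highest value and the other values lay near or under background. Its log2 difference of -2.12 from MEF did not pass (SE 0.74, limma's adjusted p = 0.0674). It passed with dim values raised to the lowest signal well above background (-1.73) and without ciNPC p13 replicate 2 (-1.87).

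**Figure D3:**
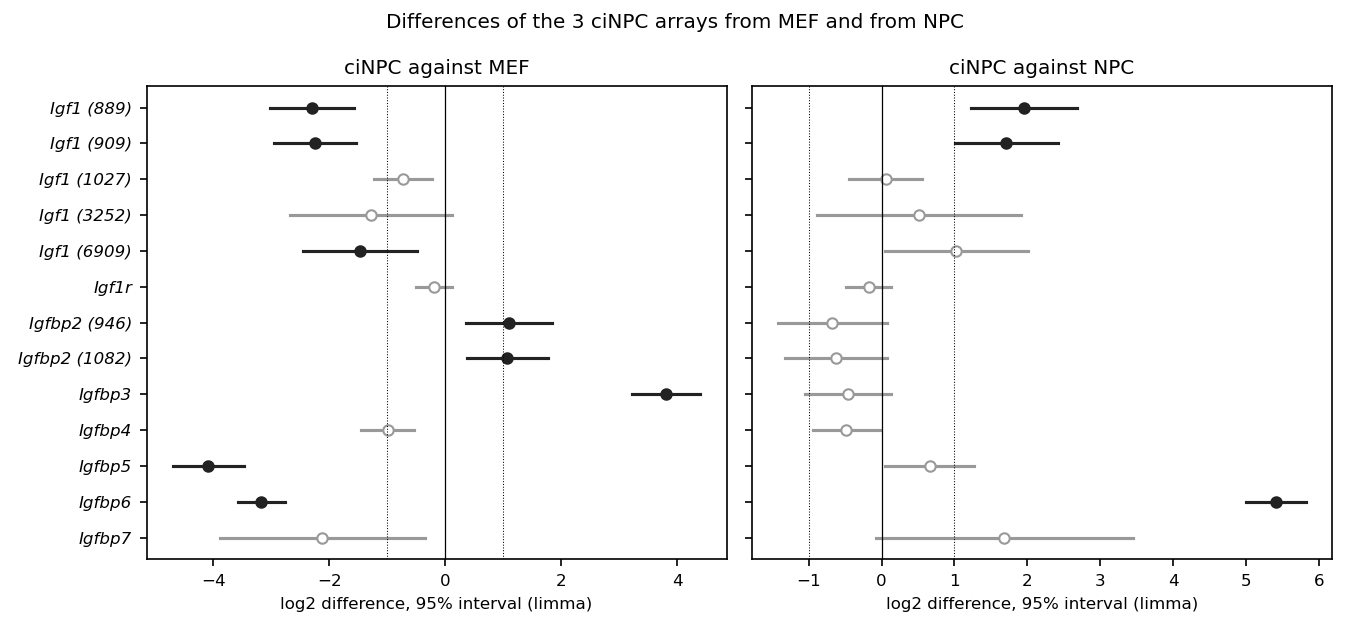
Log2 difference of the 3 ciNPC arrays from MEF (left) and from NPC (right) for each member probe, with 95% intervals from limma. Filled markers were called, open markers were not, and dotted lines mark 2-fold. Igfbp3 lies far to the right and Igfbp5 and Igfbp6 far to the left against MEF, while Igfbp6 and 2 overlapping Igf1 probes were called against NPC.

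Fibroblast, mural, endothelial and choroid plexus or meningeal cells also make IGF-binding proteins, and their markers moved with some of these results. The summed level of the 8 fibroblast markers was 8.48 and 8.39 in ciNPC p13 and 8.84 in ciNPC p5, against 0.34 in NPC and 11.3 in MEF. This order, with MEF highest and NPC lowest, was also that of Igfbp5, Igfbp6, Igfbp7 and the Igf1 variant 1 probes. Col1a1 and Twist2 were under background in NPC. Of 6 mural markers, Abcc9, Cspg4 and Pdgfrb were lower in ciNPC than in MEF, Pdgfrb was higher in ciNPC than in NPC, and Rgs5, Abcc9 and Kcnj8 were under background in ciNPC and NPC. The summed mural level was 5.37 and 5.34 in ciNPC p13 and 5.21 in ciNPC p5, against 5.33 in NPC and 6.14 in MEF, and Mcam made up most of it in ciNPC and NPC. Mcam was 0.73 higher in ciNPC than in MEF on the log2 scale (limma's adjusted p = 0.00732), under the 2-fold threshold. The median of the mural markers was -2.04 and -1.31 in ciNPC p13 and -1.50 in ciNPC p5, against -6.37 in NPC and 1.86 in MEF.

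Among 8 endothelial markers, Cdh5, Tek, Tie1 and Esam were under background on all 5 arrays, and Kdr was the only one called, lower in ciNPC than in MEF. The summed endothelial level was 2.89 and 3.05 in ciNPC p13 and 2.39 in ciNPC p5, against 2.94 in NPC and 4.26 in MEF. Kdr made up most of it on every array, at 2.79 and 2.87 in ciNPC p13, 2.28 in ciNPC p5, 2.81 in NPC and 4.22 in MEF. Of 6 choroid plexus or meningeal markers, Clic6, Kl and Slc6a13 were under background on all 5 arrays, Folr1 and Aqp1 were lower in ciNPC than in MEF, and Aqp1 was higher in ciNPC than in NPC. Their summed level was 0.34 and 0.58 in ciNPC p13 and 0.60 in ciNPC p5, against -1.98 in NPC and 2.05 in MEF. The part of these cells in the differences of the binding proteins was not tested.

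Placed on a scale with MEF at 0 and NPC at 1, the ciNPC arrays had moved by different amounts at different members. Igfbp3 stood at 0.89 ± 0.08 and Igfbp5 at 0.86 ± 0.07 (SD, n = 3 each). Igf1 stood at 0.54 ± 0.03 at base 889 and 0.57 ± 0.07 at base 909, and Igfbp2 at 0.62 ± 0.26 and 0.63 ± 0.25 (SD, n = 3 each). Igfbp6 had the lowest mean position of the members placed, at 0.37 ± 0.01 (SD, n = 3), although its difference from MEF was -3.17. Igf1r, Igfbp4 and Igf1 variant 2 were not placed, because NPC and MEF were close there. The 3 ciNPC arrays share the single MEF and NPC arrays in this scale, so the SD leaves out the error of those arrays. The NPC values of Igfbp6 and of Igf1 at base 889 were dim.

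NPC against MEF has 1 array each and no replicate check, and no test was made. Of the 13 member probes, 1 was at least 4-fold higher in NPC, Igfbp3 with a log2 difference of 4.27, and 6 were at least 4-fold lower. Over all probes tested, 9.61% were at least 4-fold higher and 11.5% at least 4-fold lower. The 6 lower probes were 3 of Igf1 (-4.25, -3.97 and -2.50), Igfbp5 (-4.75), Igfbp6 (-8.58) and Igfbp7, which was at least 7.15-fold lower. With normexp background correction, 4 member probes were at least 4-fold lower. Igfbp2 differed by 1.77 and 1.68, Igfbp4 by -0.51 and Igf1r by -0.02.

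Within ciNPC, no member probe passed the test between p13 and p5, where 0.651% of all probes were called, 0.435% higher and 0.216% lower. The log2 differences of p13 from p5 ran from -0.92 for Igfbp7, under background on both p13 arrays, to 0.24 for Igf1 variant 2, with a median of -0.10 for the members and 0.08 for all probes. The lowest adjusted p among the members in limma's fit was 0.409, for Igfbp3 at -0.27 (95% interval -0.60 to 0.06). No member had an unadjusted p under 0.05, which 18.2% of all probes had. The 2 p13 arrays differed from each other by 0.03 for Igf1r up to 0.91 for Igfbp2, and 1 residual degree of freedom underlies this test.

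Igfbp2 and Igfbp5, which differed in opposite directions from MEF, are neighbours on chromosome 1 in tail-to-tail orientation, with no protein-coding gene between them in the reference table and 5956 bases between their nearest probes (mm9). Igfbp1 and Igfbp3 are likewise neighbours on chromosome 11, with 4092 bases between their nearest probes. Igfbp1 was under background on all 5 arrays, while Igfbp3 was above it on all 5.

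The promoters of Igfbp3 and Igfbp5 are shown because these members had the largest rise and the largest fall against MEF. Each is the 250 bases before the gene's start in RefSeq (GRCm38.p6), written in the sense of the gene. Windows were found for all 8 members. The study asked about conversion under low oxygen. The letters GCGTG and ACGTG, the core that hypoxia-inducible factors are known to bind, were therefore searched on both strands. GCGTG also lies within the aryl hydrocarbon receptor element and ACGTG within the E-box, and matches to GCGTG are in capitals.
Igfbp3, chr11:7213924-7214173, minus strand: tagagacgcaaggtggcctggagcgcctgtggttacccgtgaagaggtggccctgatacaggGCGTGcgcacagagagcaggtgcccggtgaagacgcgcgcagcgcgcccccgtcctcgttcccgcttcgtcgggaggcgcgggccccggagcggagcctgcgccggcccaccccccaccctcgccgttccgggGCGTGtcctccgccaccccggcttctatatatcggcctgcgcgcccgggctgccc
Igfbp5, chr1:72874866-72875115, minus strand: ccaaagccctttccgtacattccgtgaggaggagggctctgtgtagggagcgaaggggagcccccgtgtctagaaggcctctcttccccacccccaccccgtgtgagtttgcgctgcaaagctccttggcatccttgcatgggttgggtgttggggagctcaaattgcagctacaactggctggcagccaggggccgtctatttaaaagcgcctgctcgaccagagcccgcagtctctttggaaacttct

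The Igfbp3 window, at a GC content of 73.2%, held 2 matches to GCGTG and none to the other motif, and the Igfbp5 window, at 58.8%, held 0 of either. Igf1r had 3 matches to GCGTG, Igf1 had 1, and Igfbp7 had 1 to each. Igfbp2 has 2 starts in the table, of which the first had 2 matches to each and the second had 0. The windows of Igfbp4 and Igfbp6 held 0. Of 32851 promoters of the same length, 28.2% held GCGTG and 16.6% held ACGTG. A match is a description of the letters, and the labels give no oxygen level for any group.

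The other genes of the pathway were taken from a list of 41, of which 39 were tested, with the probe of highest mean for each gene. Against MEF, 4 of the 39 were higher in ciNPC and 12 were lower, with a median log2 difference of -0.24. Against NPC, 4 were higher and 0 were lower, with a median of 0.05. None was called between p13 and p5 in limma, where 3 were higher and 9 lower at an unadjusted p under 0.05 and the median was -0.06. Against NPC, 10 were higher and 4 were lower at the unadjusted threshold, which 12.4% of all probes tested passed in either direction. Over all probes tested, 24.0% were called against MEF, 2.76% against NPC and 0.651% between passages, where 18.2% passed the unadjusted threshold. Igfbp1 and Igfals, the liver-made partner of serum IGF complexes, were under background on all 5 arrays.

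Of the other ligands and receptors, Igf2, the second IGF, lay at 1.64 and 1.54 in ciNPC p13 and 1.94 in ciNPC p5, against -4.69 in NPC, under background, and 2.55 in MEF. Igf2 was at least 62.7-fold higher in ciNPC than in NPC (limma's adjusted p = 2.5e-05), and its difference of -0.84 from MEF was under 2-fold. Ghr, the growth hormone receptor, which drives Igf1 in liver, lay at 0.84 and 0.80 in ciNPC p13 and 1.64 in ciNPC p5, against -2.10 in NPC and 2.79 in MEF. It was lower than in MEF (log2 difference -1.70, SE 0.35, adjusted p = 0.00956) and higher than in NPC by 3.19 (SE 0.35, adjusted p = 0.00371).

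Igf2r, the receptor that clears IGF2, was lower in ciNPC than in MEF (log2 difference -1.64, SE 0.15, limma's adjusted p = 0.000437). Of 5 relatives of the binding proteins tested, Esm1 (2.60) and Igfbpl1 were higher and Kazald1 (-2.26) and Htra1 (-3.36) were lower in ciNPC than in MEF. Igfbpl1 was above background only in ciNPC p5 and NPC, and its call was lost under quantile normalisation, without ciNPC p5 (adjusted p = 0.122) and without ciNPC p13 replicate 1 (adjusted p = 0.194). Crim1, a membrane protein with an IGF-binding-protein-like domain, was higher in ciNPC than in NPC by 1.10 (adjusted p = 0.0223), and that call was lost under quantile normalisation (adjusted p = 0.0631). Without an intensity trend Igf2 alone of the 4 genes kept its call against NPC.

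Among the proteases, Pappa had the order of cell types seen at Igfbp5, Igfbp6, Igfbp7 and the Igf1 variant 1 probes. This protease, the PAPP-A that cuts IGFBP4, lay at -0.92 and -0.88 in ciNPC p13 and -0.08 in ciNPC p5, against -4.96 in NPC, under background, and 3.84 in MEF. Pappa was lower in ciNPC than in MEF (log2 difference -4.47, SE 0.39, limma's adjusted p = 0.000322) and at least 12.4-fold higher than in NPC (adjusted p = 0.0015). Pappa2, which cuts IGFBP5, was at least 8.38-fold lower in ciNPC than in MEF (adjusted p = 0.0192). Stc2, a secreted inhibitor of PAPP-A, was lower in ciNPC than in MEF (log2 difference -2.20, SE 0.27, adjusted p = 0.00125).

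Inside the cell, 7 of 19 genes of the receptor's signal chain were called against MEF and 0 against NPC. In the comparison with NPC, limma's unadjusted p was under 0.05 for 2 higher and 4 lower. Over all probes tested, 24.0% were called against MEF and 2.76% against NPC, where 12.4% had an unadjusted p under 0.05. The adaptor Irs1 (1.28) and the kinase subunit Pik3r3 (1.25) were higher in ciNPC than in MEF. The adaptor Shc1 (-2.26), the translation repressor Eif4ebp1 (-2.20), the adaptor Grb10 (-1.48) and the transcription factor Foxo1 (-1.38) were lower, and Irs2 was the fifth called lower. None of Igf2bp1, Igf2bp2 and Igf2bp3, which bind Igf2 mRNA, was called in any of the 3 comparisons tested.

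**Figure D4:**
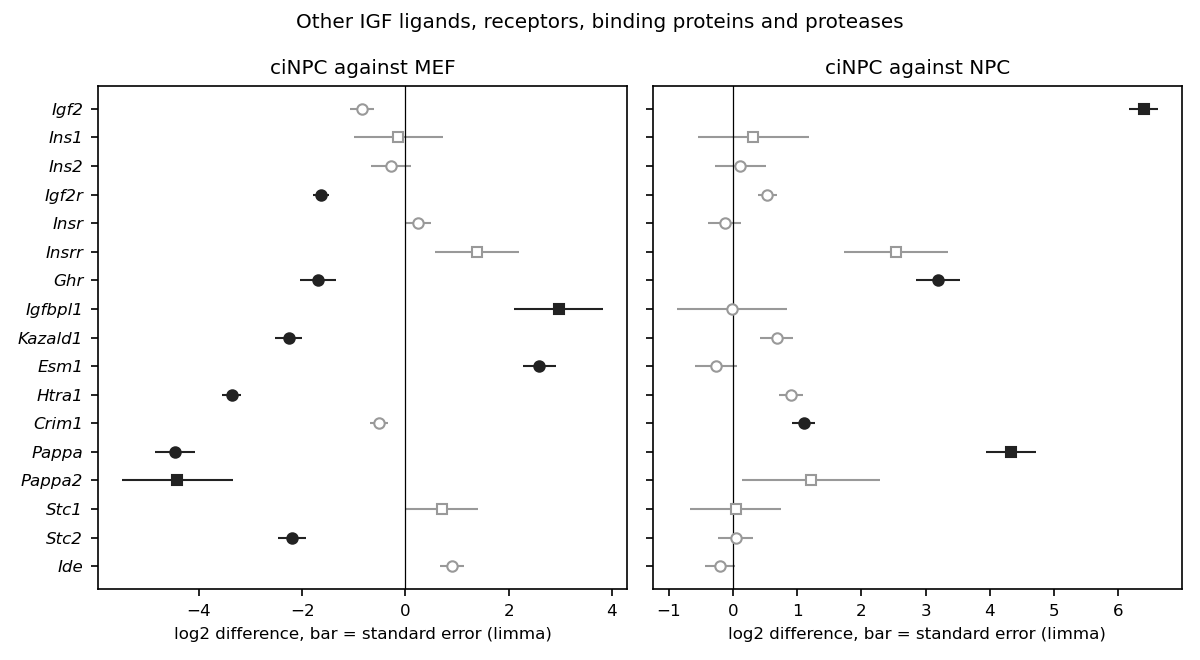
Log2 difference of ciNPC from MEF (left) and from NPC (right) for other IGF ligands, receptors, binding-protein relatives, proteases and inhibitors, with bars for limma's standard error. Filled markers were called, and squares mark genes under background throughout at least 1 of the cell types compared, for which the fitted difference is no bound. Htra1 and Pappa lie far to the left against MEF, and Igf2 and Pappa far to the right against NPC.

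For each of 5 members, the genes most like it were the 2 with the smallest root mean square difference of the 5 values, each centred on its own mean, among 13274 genes. All comparisons of this kind share the same 5 arrays. Igfbp3 was closest to P2rx7 (0.05) and Aatk (0.07) and Igfbp5 to Sod3 (0.19) and Hspg2 (0.23). Igfbp4 was closest to Pcgf1 (0.05) and Ltbp4 (0.06), and Igf1r to Foxj3 (0.02) and Prkag1 (0.02). Igf1 at variant 2 was closest to Prdm2 (0.03) and Cryba4 (0.05). These 5 members and the 10 genes named were above background on all 5 arrays. No match is given for Igfbp2, whose nearest genes were above background on 1 array each, or for Igfbp7, itself above background on 2.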

How the data were processed

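RNA of 5 mouse samples was hybridised to single-colour 60-mer Agilent arrays annotated on mm9, per the file headers. Signals were extracted with Agilent Feature Extraction 10.7.1.1, per the submitters' processing notes, and the deposited files give each spot's processed intensity, background-subtracted within the array. The authors' deposited value table holds log2 values (median 5.65 on each array) whose sorted columns were within 0.01 of each other at 99.6% of ranks and differed by at most 0.158, read here as quantile normalised because the step is not described in the labels.

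The values analysed were log2 processed intensity minus the array's 75th percentile, averaged over a probe's spots without outlier spots. Control spots were left out. ciNPC against MEF and NPC came from 1 fit with 3 cell types (limma 3.58.1 in R 4.3.3, eBayes with an intensity trend, 2 residual degrees of freedom), and p13 against p5 from a fit with 4 groups (1 residual degree of freedom). The procedure was tested on simulated data. Alternatives changed scaling, background correction, filter, floor, trend and the arrays included. All member probes were named. Of the listed pathway genes, every called ligand, receptor, binding protein and protease was named, and up to 4 of the signal chain per comparison. The members, lists and tests were chosen with earlier results of these data known. Promoters are RefSeq's, GRCm38.p6. Exons and UTRs were not assigned, as no annotation of mm9 was used here. Some listed or matched items are not reported here.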

Additional observations from a re-analysis of the deposited data

How the results depend on the processing

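Igfbp3, Igfbp5 and Igfbp6 kept their calls against MEF, and Igfbp6 its call against NPC, in all 12 alternatives. Several of these alternatives leave the differences themselves unchanged, and none adds a MEF or NPC array or separates slide from cell type. Of 13 member probes, 3 were higher in ciNPC than in MEF, against 1 without an intensity trend and 1 to 3 with 1 ciNPC array left out, the 1 without p13 replicate 1. The 5 lower ones became 2 with 1 probe a gene name, by construction, and 4 to 7 with 1 array left out. The 3 higher than in NPC became 1 under quantile normalisation, 1 in the deposited value table, 1 with 1 probe a gene name and 1 without a trend. The 4 pathway genes higher than in NPC became 2 with a filter on all 5 arrays, which drops genes under background in NPC, and 1 without a trend. Differences that changed sign were uncalled. Against NPC these were Igf1 variant 2 (-0.0123 to 0.14 with 1 ciNPC array left out, below 0 without p13 replicate 2) and Igf1 at 3252 (-0.15 under quantile normalisation and -0.15 in the deposited table). For p13 against p5 these were Igf1 at 889 (0.0396 with the percentile over detected probes, 0.0726 with normexp), Igf1 at 3252 (-0.57 under quantile normalisation and -0.57 in the deposited table), Igfbp2 (-0.0248 and -0.0313 with normexp) and Igfbp5 (0.00243 with the percentile over detected probes). Except where the alternative's construction shows it, the cause was not tested.

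Over all probes, the 984 called against NPC became 577 under quantile normalisation, 574 in the deposited table, 598 with the filter on all 5 arrays, 330 without a trend and 1672 without p13 replicate 2 (1460 higher and 212 lower, against 966 and 18). The 232 called between passages became 3 in the quantile and in the deposited values, 357 with the percentile over detected probes, 502 with normexp, 95 with the filter, 140 with 1 probe a gene name, 591 at the floor and 0 without a trend, where limma with a trend gave 6471 at an unadjusted p under 0.05. The percentile over detected probes moved the median of all probes against MEF to 0.06, beside -0.08. No paired analysis was possible because MEF, NPC and ciNPC p5 have 1 array each. Slide could not be fitted as a block for ciNPC against MEF or NPC. Leaving out a p13 array left no residual degree of freedom between passages. Dim probes (Igfbp7, Igf1 at 3252) are limited by background.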

Other observations

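Among genes of the wider pathway, NPC and MEF differed most at the protease gene Pappa, which was at least 275.5-fold lower in NPC. Igf2 was at least 112-fold lower and Pappa2 at least 17.3-fold lower in NPC. Ghr differed by -4.89 and Htra1, a secreted serine protease with an IGF-binding-protein-like domain, by -4.27 on the log2 scale. Esm1 differed by 2.85. With 1 array each, these values have no replicate check.

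Within the ciNPC arrays, the SD of the member probes ran from 0.06 for Igf1r to 0.56 for Igfbp7, with a median of 0.28 (n = 3 arrays).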
